A study of Mus musculus with 16 samples.

Results

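The genes described here encode the nuclear part of the oxidative phosphorylation system, and the measurements are CUT&Tag peaks of the transcription factors Spi1 and Bcl11a at those genes in mouse bone marrow MPP3 cells. The members are the protein-coding nuclear genes whose symbol starts with Nduf, with Sdh followed by a letter a to d, with Uqcr, with Cox followed by a digit, or with Atp5. The rule uses names only, and it took 109 of 21883 protein-coding genes on 19 chromosomes. Of the 109, 88 encode subunits and their isoforms and 21 encode assembly factors that share the naming.

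In CUT&Tag an antibody against the factor brings a transposase to its binding sites, where the DNA is cut and tagged for sequencing. MPP3 is a multipotent progenitor population of the bone marrow with a myeloid bias. Spi1 (PU.1) was profiled in KO-iMOS cells, with 2 T2 and 2 T1 libraries. In WT-iMOS cells Bcl11a was profiled with 3 T2 and 3 T1 libraries, and Spi1 likewise with 3 T2 and 3 T1 libraries. Every title also carries the mark 3m. Left unexplained by the labels are 3m, iMOS, T1 and T2, the allele that KO removes, and whether each replicate is another animal, and neither the age nor the sex of the mice is spelled out. All p-values therefore measure the spread between these libraries only, which may be technical. The design text gives the function of Bcl11a in MPP3 as the aim. A peak list does not measure the product of a deleted allele, so the deletion was not checked here.

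The respiratory chain passes electrons through complexes I to IV in the inner mitochondrial membrane and pumps protons, and ATP synthase (complex V) uses the gradient to make ATP. Most subunits are encoded in the nucleus, and a small set of core subunits by mitochondrial DNA. The nuclear genes are transcribed in nearly all cells, mostly from GC-rich promoters in which NRF1, ETS factors of the GABPA type, YY1 and Sp factors are known to bind. Spi1 itself belongs to the ETS family and is needed to form myeloid and lymphoid cells, and Bcl11a is a zinc finger protein that keeps the fetal globin genes silent.

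The promoters on which several of the results turn are printed first, as the 250 bases before the RefSeq gene start on GRCm38.p6, all on the minus strand and read 5′ to 3′ towards the gene. Capitals mark letters of the searched motifs on either strand: CCGGAAGT and GAGGAAGT (ETS), GCGCATGC (NRF1), TGACCA (Bcl11a), AAGATGGC (YY1) and GGGCGG (Sp). Cox8a (chr19:7217617-7217866) had a peak within 1 kb of a gene end in the most libraries of any member. Cox10 (chr11:64079473-64079722) had Spi1 in every Spi1 library and Bcl11a in none. Atp5md (chr19:47090648-47090897) was the ATP synthase gene with the most libraries at a gene end. Atp5g1 (chr11:96075632-96075881) and Uqcrh (chr4:116075071-116075320) are shown for their contrast between groups and were added after their values were seen. Atp5k (chr5:108434400-108434649) had no peak in any library.

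Cox8a: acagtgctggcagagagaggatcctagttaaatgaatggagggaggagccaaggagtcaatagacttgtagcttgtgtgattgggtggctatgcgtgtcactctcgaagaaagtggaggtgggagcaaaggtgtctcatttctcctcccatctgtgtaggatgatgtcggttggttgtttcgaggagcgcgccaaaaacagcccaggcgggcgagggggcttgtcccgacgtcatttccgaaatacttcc
Cox10: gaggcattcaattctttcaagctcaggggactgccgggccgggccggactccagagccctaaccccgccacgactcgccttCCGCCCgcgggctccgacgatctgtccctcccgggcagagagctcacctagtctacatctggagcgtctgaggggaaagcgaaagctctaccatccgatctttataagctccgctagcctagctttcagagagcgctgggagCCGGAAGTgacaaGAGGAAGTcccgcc
Atp5md: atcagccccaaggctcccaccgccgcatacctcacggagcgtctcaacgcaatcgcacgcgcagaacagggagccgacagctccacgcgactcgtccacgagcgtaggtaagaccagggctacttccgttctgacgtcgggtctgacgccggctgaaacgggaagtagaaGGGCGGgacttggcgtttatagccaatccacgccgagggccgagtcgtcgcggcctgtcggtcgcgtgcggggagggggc
Atp5g1: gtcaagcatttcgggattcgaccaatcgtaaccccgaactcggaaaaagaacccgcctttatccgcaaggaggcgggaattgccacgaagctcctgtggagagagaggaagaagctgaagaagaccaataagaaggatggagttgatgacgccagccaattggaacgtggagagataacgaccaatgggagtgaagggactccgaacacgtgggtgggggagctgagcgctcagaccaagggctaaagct
Uqcrh: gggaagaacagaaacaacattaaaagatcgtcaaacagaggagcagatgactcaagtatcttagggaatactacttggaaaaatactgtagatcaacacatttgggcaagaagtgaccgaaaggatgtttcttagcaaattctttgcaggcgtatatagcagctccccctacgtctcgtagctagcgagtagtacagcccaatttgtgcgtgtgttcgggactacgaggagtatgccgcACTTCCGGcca
Atp5k: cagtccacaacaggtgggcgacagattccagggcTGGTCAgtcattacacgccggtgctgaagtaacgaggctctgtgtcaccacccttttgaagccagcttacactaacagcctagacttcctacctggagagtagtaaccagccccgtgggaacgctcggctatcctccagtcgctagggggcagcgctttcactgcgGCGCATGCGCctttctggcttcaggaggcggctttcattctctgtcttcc

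In the Cox10 window the letters CCGGAAGT start 27 bases and GAGGAAGT 14 bases before the gene start. Its Spi1 summits lay at a median of 50 bp after the start in KO-iMOS (4 summits) and 142.5 bp after it in WT-iMOS (6 summits). The Uqcrh window holds CCGGAAGT on the opposite strand, and the 6 Bcl11a summits there had a median position of 99 bp upstream (summit minus start, -99 bp). The Cox8a and Atp5g1 windows hold none of the 6 motifs. Promoter windows of 300 bases (250 before and 50 after the start) were available for 89 members and 17491 genes in all. CCGGAAGT stood in 10.1% of the 89 member windows, against 5.28% of all windows. GCGCATGC stood in 13.5% of member windows, against 3.60% of all, and AAGATGGC in 13.5%, against 3.21%. GAGGAAGT, TGACCA and GGGCGG were near the share in all windows, at 3.37% against 3.14%, 13.5% against 12.6%, and 49.4% against 46.3%. GCGCATGC is nearly its own reverse complement, so matches on both strands can overlap, and a match is a description of the letters and not a site.

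Each library is one list of peaks called by the authors on mm10. The lists held 2719 to 20241 peaks. Spi1 KO-iMOS lists averaged 13637 ± 5724 peaks (SD, n = 4), Bcl11a WT-iMOS lists 4740 ± 1725 (n = 6) and Spi1 WT-iMOS lists 8159 ± 2763 (n = 6). Read counts were not used here and depth is unknown, so list length and binding cannot be told apart. Spi1 or Bcl11a had peaks at myeloid genes, with Csf1r, Csf2ra and Spi1 itself occupied in all 16 libraries, and Cd3e (T cell) in 0. Kit, a receptor of progenitors, had a peak in 0 of 4 Spi1 KO-iMOS, 2 of 6 Bcl11a and 2 of 6 Spi1 WT-iMOS libraries. Factor peaks do not measure expression, so the sorted cell type was not checked further.

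In the lists as deposited, Spi1 peaks stood at the majority of the 109 genes in KO-iMOS cells and at fewer in WT-iMOS cells, and Bcl11a peaks at fewer still. This order moved with list length and did not hold in lists of equal length. A gene was counted at its locus when a peak shared at least 1 bp with the gene body or the 10 kb on either side, and at a gene end when a summit lay within 1 kb of either gene boundary. At the locus, 73 members had Spi1 in at least 2 KO-iMOS libraries (49.8% of all genes, 67.0% of members). Bcl11a in at least 2 WT-iMOS libraries was found at 31 members (25.4% of all genes, 28.4% of members), and Spi1 in at least 2 WT-iMOS libraries at 41 members (33.5% of all genes, 37.6% of members). At a gene end the counts were 56 members for Spi1 in KO-iMOS (27.3% of all genes, 51.4% of members), 15 for Bcl11a (10.9% of all genes, 13.8% of members) and 27 for Spi1 in WT-iMOS (12.7% of all genes, 24.8% of members). Both factors were present in at least 2 WT-iMOS libraries each at 22 loci (19.5% of all genes) and at 11 gene ends (6.53% of all genes). In every library of its group, a member had a locus peak in 28 cases for Spi1 KO-iMOS (22.3% of all genes), 4 for Bcl11a (3.54% of all genes) and 9 for Spi1 WT-iMOS (10.4% of all genes), and an end peak in 19 (9.28% of all genes), 2 (0.781% of all genes) and 4 (3.11% of all genes). In at least 1 of the 16 libraries, 92 members had a peak at the locus (66.6% of all genes) and 80 at a gene end (39.9% of all genes). With each list cut to its 2719 strongest peaks, the locus counts were 11 members for Spi1 in KO-iMOS (10.1% of members, 12.5% of all genes), 18 for Bcl11a (16.5% of members, 14.5% of all genes) and 11 for Spi1 in WT-iMOS (10.1% of members, 12.9% of all genes). The gene-end counts were then 6 for Spi1 in KO-iMOS (5.50% of members, 4.62% of all genes), 8 for Bcl11a (7.34% of members, 5.47% of all genes) and 7 for Spi1 in WT-iMOS (6.42% of members, 4.09% of all genes).

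**Figure D1:**
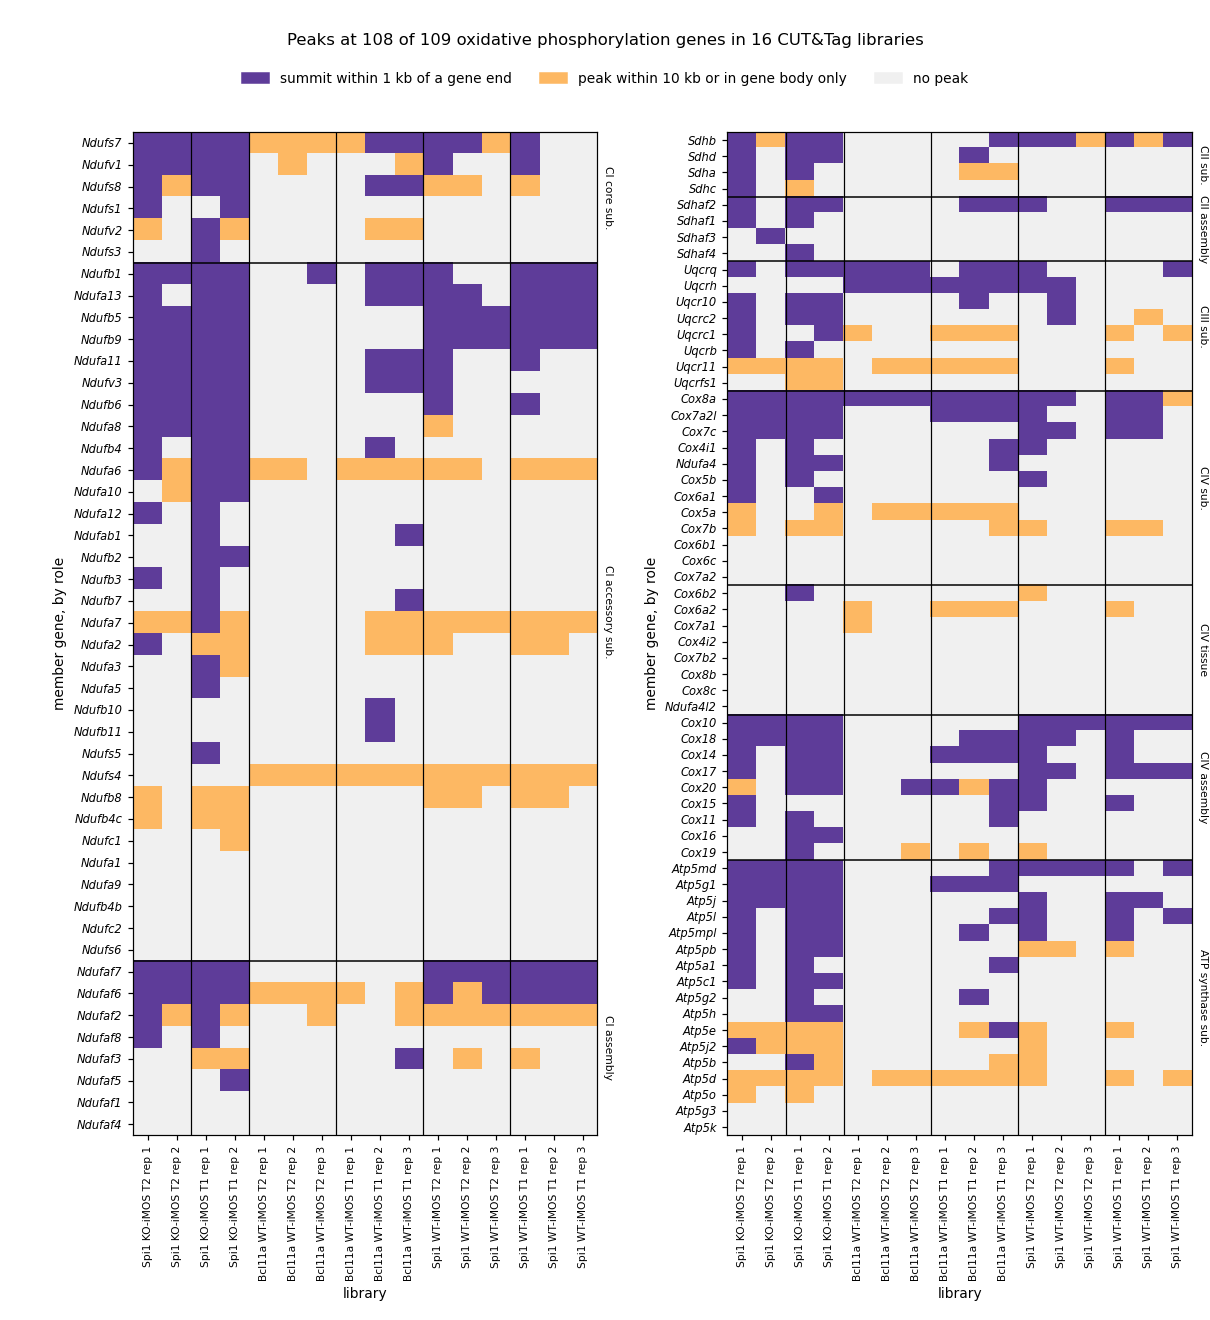
Peaks at 108 of the 109 members (rows, by role) in the 16 libraries (columns, Spi1 KO-iMOS, Bcl11a WT-iMOS and Spi1 WT-iMOS, T2 before T1). Purple marks a summit within 1 kb of a gene end and orange a peak elsewhere in the gene body or within 10 kb; 17 rows have no peak, and the complex IV tissue isoforms are nearly empty.

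Per library, members carried gene-end peaks more often than genes of the same length in 15 of 16 libraries. The length-matched value is the mean share among the 100 other protein-coding genes nearest in length to each member, since short genes offer less room for peaks; the members' median length was 7394 bp, against 17170 bp for all genes. In Spi1 KO-iMOS, 50.5% and 18.3% of members had a gene-end peak in the 2 T2 libraries and 60.6% and 41.3% in the 2 T1 libraries, with length-matched shares of 25.6%, 10.9%, 30.9% and 21.2%. In Bcl11a WT-iMOS the member shares were 2.75%, 2.75% and 4.59% in T2 and 5.50%, 19.3% and 24.8% in T1, against length-matched shares of 2.73%, 3.17%, 3.55%, 4.83%, 11.8% and 15.0%. In Spi1 WT-iMOS they were 28.4%, 14.7% and 5.50% in T2 and 22.9%, 12.8% and 11.9% in T1, against 14.9%, 8.06%, 4.64%, 13.4%, 8.48% and 6.49%. The Spi1 KO-iMOS library with 18.3% has the shortest list of its group, 6372 peaks. Bcl11a reached its highest member shares at gene ends in T1 replicates 2 and 3, whose lists are the longest for Bcl11a.

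Averaged over libraries, the member share less the length-matched share at gene ends was 20.5 ± 9.56 percentage points in Spi1 KO-iMOS (SD, n = 4, above in 4 of 4), 3.09 ± 4.36 in Bcl11a (n = 6, above in 5 of 6) and 6.72 ± 4.37 in Spi1 WT-iMOS (n = 6, above in 6 of 6). At the locus it was 15.1 ± 6.77 points in Spi1 KO-iMOS (above in 4 of 4), 4.86 ± 4.64 in Bcl11a (above in 6 of 6) and 3.82 ± 4.99 in Spi1 WT-iMOS (above in 5 of 6). These are descriptions without a test. Another protein-coding gene end lay within 1 kb of 54.1% of members, against 28.9% of length-matched genes and 24.8% of all genes. Matched also on having such a neighbour, the gene-end excess was 14.9 ± 7.72 points in Spi1 KO-iMOS, 1.42 ± 3.04 in Bcl11a (above in 3 of 6) and 4.15 ± 3.42 in Spi1 WT-iMOS. With every list cut to its 2719 strongest peaks, it was 1.5 ± 1.99 points in Spi1 KO-iMOS, 1.07 ± 1.36 in Bcl11a and 1.57 ± 0.997 in Spi1 WT-iMOS. Genes were not matched on expression.

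**Figure D2:**
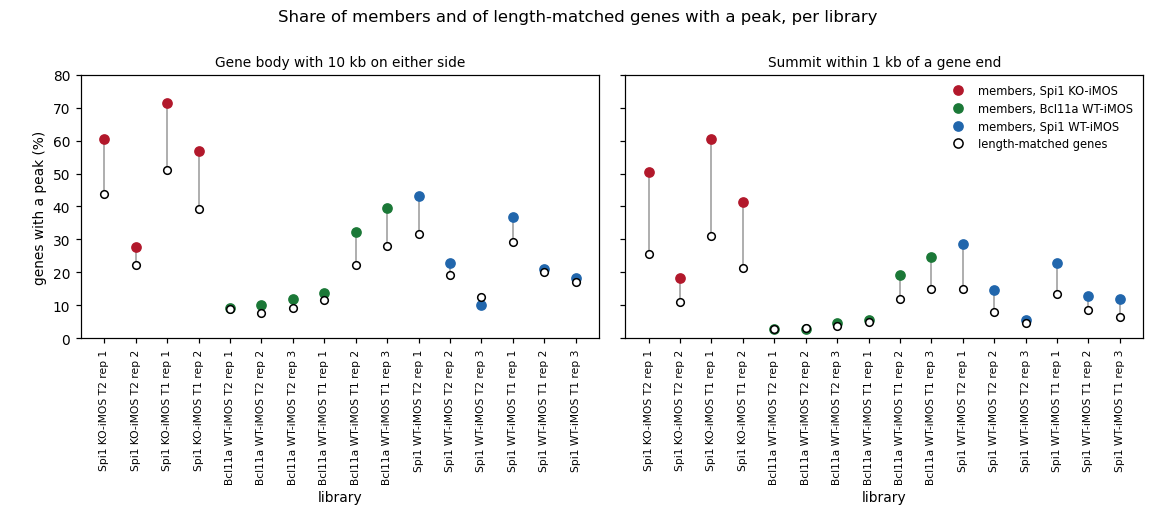
Share of members (filled) and of length-matched genes (open) with a peak in each library, in percent, at the locus and at a gene end. Filled points lie above open ones at gene ends in every Spi1 library, by the widest gap in the 3 longest KO-iMOS lists.

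Peaks at member ends sat on promoters. Where RefSeq gave a start and strand, 149 gene-library pairs had a summit within 1 kb of the start in Spi1 KO-iMOS and 6 at the other end, 61 and 0 in Bcl11a, and 74 and 2 in Spi1 WT-iMOS. The other 17402 genes with a known start also had far more pairs at the start than at the other end, with 16547 and 1361 in Spi1 KO-iMOS, 7443 and 658 in Bcl11a, and 9580 and 1056 in Spi1 WT-iMOS. For 5 of the 89 members with a RefSeq start (Atp5d, Atp5g3, Cox20, Cox5a and Cox7a2) that start lay more than 1 kb from both gene boundaries, so a summit at that start can be missed by the gene-end count. The median summit lay 84 bp upstream of the start (-84 bp, 287 summits), and 74.9% of summits lay within 250 bp of it. Within their own lists these peaks were of middling strength. The median percentile of the authors' −log10 p, with 100 the strongest peak of the list, was 48.1 in Spi1 KO-iMOS, 50.02 in Bcl11a and 49.7 in Spi1 WT-iMOS. Merged over libraries, peaks formed 161 regions at member loci, of which 88 were at a member end. At 45 of the 88 another gene's end also lay within 1 kb of a summit, so those peaks cannot be assigned to the member alone.

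**Figure D3:**
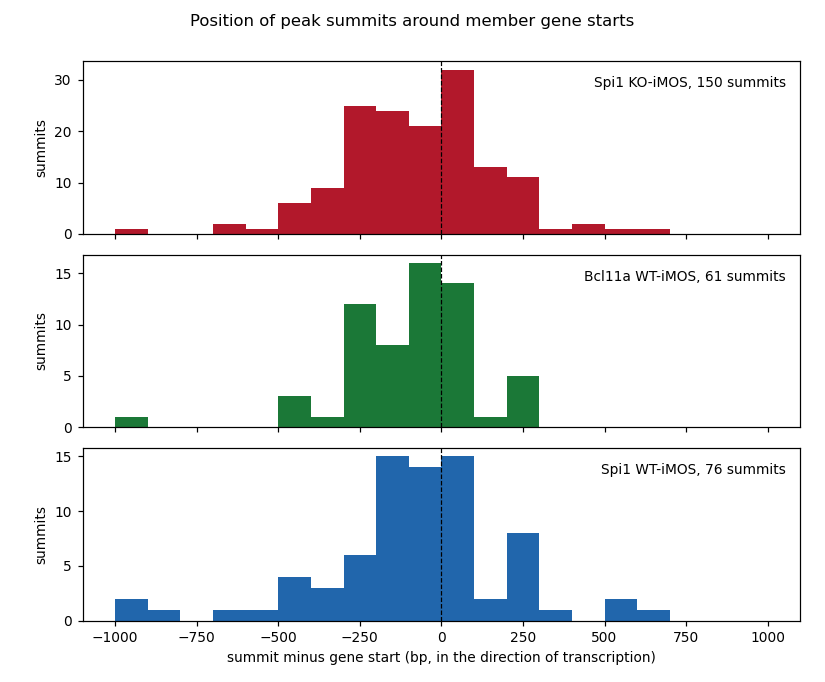
Distance of peak summits from member gene starts in bp (bins of 100 bp; negative is upstream), for Spi1 KO-iMOS (150 summits), Bcl11a WT-iMOS (61) and Spi1 WT-iMOS (76). In each group the summits gather within 250 bp of the start, with medians of -80.5, -84 and -89 bp.

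Complex I, the NADH dehydrogenase, has 7 nuclear core subunits, 32 accessory subunits and 8 assembly factors among the members. Of the core subunits, which carry the redox centres, 5 had Spi1 at a gene end in at least 2 KO-iMOS libraries (27.3% of all genes). In at least 2 libraries, 2 had Bcl11a (10.9% of all genes) and 3 had Spi1 in WT-iMOS (12.7% of all genes). Ndufs7, an iron-sulfur subunit, had an end peak in 4 of 4 Spi1 KO-iMOS, 2 of 6 Bcl11a and 3 of 6 Spi1 WT-iMOS libraries. Ndufv1, the subunit that binds the flavin that takes electrons from NADH, had 4 of 4 Spi1 KO-iMOS, 0 of 6 Bcl11a and 2 of 6 Spi1 WT-iMOS libraries. Ndufs7 also had a second region 4411 bp from the gene and 35 bp from the end of Dazap1 (chr10:80260988-80261941), with Bcl11a in 6 of 6 libraries, Spi1 in 4 of 4 KO-iMOS libraries and Spi1 in 3 of 6 WT-iMOS libraries.

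Of the 32 accessory subunits, 14 (43.8%) had Spi1 at a gene end in at least 2 KO-iMOS libraries, 4 (12.5%) had Bcl11a and 6 (18.8%) had Spi1 in WT-iMOS. The shares over all genes were 27.3%, 10.9% and 12.7%, so the Bcl11a count was near that of all genes. No library had an end peak for 9 of the 32. Ndufb5 and Ndufb9, subunits of the membrane arm, each had Spi1 in 4 of 4 KO-iMOS libraries and 6 of 6 WT-iMOS libraries and Bcl11a in 0 of 6. Both peaks are shared with a neighbour, Mrpl47 for Ndufb5 (chr3:32736458-32737140) and Tatdn1 for Ndufb9 (chr15:58933259-58934037). At Ndufb9 the Spi1 peak stood at the 87.6th percentile of its list in KO-iMOS (median of 4) and at the 72.3rd in WT-iMOS (median of 6). Ndufb1 had an end peak in 4 of 4 Spi1 KO-iMOS, 3 of 6 Bcl11a and 4 of 6 Spi1 WT-iMOS libraries, and Ndufa13 (GRIM-19) in 3 of 4 Spi1 KO-iMOS, 2 of 6 Bcl11a and 5 of 6 Spi1 WT-iMOS libraries.

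Among the complex I assembly factors, Ndufaf7, a methyltransferase needed for complex I assembly, had the highest-ranked end peak of the assembly factors named. Its region (chr17:78935655-78937424) lies at an end shared with Cebpz, and had Spi1 in all 10 Spi1 libraries and Bcl11a in 0 of 6. The peak stood at percentiles 79.0 to 97.5 of the KO-iMOS lists (median 92.9) and 80.7 to 95.6 of the WT-iMOS lists (median 88.8), and it was kept in all 10 Spi1 libraries with lists cut to equal length. Ndufaf6 had Spi1 at a gene end in 4 of 4 KO-iMOS libraries and 5 of 6 WT-iMOS libraries and Bcl11a in 0 of 6. A second region inside Ndufaf6, 6097 bp from the nearer end (chr4:11055012-11055895), had the other pattern: Spi1 in 0 of 4 KO-iMOS libraries, Bcl11a in 5 of 6 and Spi1 in 3 of 6 WT-iMOS libraries, those 3 being the T2 ones. It was noticed after the values were seen. Near Ndufaf2, a region 7926 bp away and 9 bp from the end of Smim15 (chr13:108044067-108044878) had Spi1 in all 10 Spi1 libraries and Bcl11a in 1 of 6.

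Complex II, succinate dehydrogenase, has 4 subunits, all encoded in the nucleus. Sdhb, the iron-sulfur subunit, had an end peak in 3 of 4 Spi1 KO-iMOS, 1 of 6 Bcl11a and 4 of 6 Spi1 WT-iMOS libraries. Stronger Spi1 peaks stood 4217 bp outside the gene (chr4:140983104-140983816), in 4 of 4 KO-iMOS libraries and 6 of 6 WT-iMOS libraries at median percentiles of 94.8 and 93.7, with Bcl11a in 1 of 6. That region lies nearer to an end of Atp13a2, 2604 bp away. Sdhd, a membrane anchor, had an end peak in 3 of 4 Spi1 KO-iMOS, 1 of 6 Bcl11a and 0 of 6 Spi1 WT-iMOS libraries, and Sdha, the flavoprotein, in 2 of 4 Spi1 KO-iMOS, 0 of 6 Bcl11a and 0 of 6 Spi1 WT-iMOS libraries. Sdhaf2, which helps to attach the flavin to Sdha, had 3 of 4 Spi1 KO-iMOS, 2 of 6 Bcl11a and 4 of 6 Spi1 WT-iMOS libraries.

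Complex III, the cytochrome bc1 complex, held Uqcrh and Uqcrq, where Bcl11a was found in more WT-iMOS libraries than Spi1. Uqcrh, the hinge protein that contacts cytochrome c1, had Spi1 in 0 of 4 KO-iMOS libraries, Bcl11a in 6 of 6 WT-iMOS libraries and Spi1 in 2 of 6, both T2. The region (chr4:116074981-116075410) lies 3 bp from the end of Lrrc41, and the Bcl11a peak ranged over percentiles 15.6 to 92.9 of its lists (median 44.9). It was the 1 member with an end peak in a Spi1 WT-iMOS library and none in KO-iMOS. Uqcrq, a small subunit beside cytochrome b, had 3 of 4 Spi1 KO-iMOS, 5 of 6 Bcl11a and 2 of 6 Spi1 WT-iMOS libraries at an end shared with Gdf9. Near Uqcr11 the region lies at the end of Mbd3, 3145 bp from the member (chr10:80398881-80400173), and had 4 of 4 Spi1 KO-iMOS, 5 of 6 Bcl11a and 1 of 6 Spi1 WT-iMOS libraries. The core proteins Uqcrc1 and Uqcrc2 had end peaks in 2 of 4 and 3 of 4 KO-iMOS libraries, in 0 of 6 Bcl11a libraries each, and in 0 of 6 and 1 of 6 Spi1 WT-iMOS libraries.

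Complex IV, cytochrome c oxidase, has 12 broadly expressed subunit genes, 8 isoforms with restricted expression and 9 assembly factors. Cox8a, the broadly expressed form of the smallest subunit, had an end peak in 4 of 4 Spi1 KO-iMOS libraries, 6 of 6 Bcl11a libraries and 4 of 6 Spi1 WT-iMOS libraries, those lacking it being T2 replicate 3 and T1 replicate 3. Its peak (chr19:7217183-7218237) has no other gene end within 1 kb, and stood at a median percentile of 60.4 in Spi1 KO-iMOS, 70.8 in Bcl11a and 38.8 in Spi1 WT-iMOS. Cox7a2l, which joins complexes III and IV into supercomplexes, had 4 of 4 Spi1 KO-iMOS, 3 of 6 Bcl11a and 3 of 6 Spi1 WT-iMOS libraries. Cox7c had Spi1 in 4 of 4 KO-iMOS libraries and 4 of 6 WT-iMOS libraries and Bcl11a in 0 of 6, with percentiles of 84.4 to 93.4 in KO-iMOS and 36.3 to 75.3 in WT-iMOS. Cox6b1, Cox6c and Cox7a2 had no peak at the locus in any library.

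The 8 isoforms with restricted expression (Cox4i2, Cox6a2, Cox6b2, Cox7a1, Cox7b2, Cox8b, Cox8c and Ndufa4l2), of which Cox6a2, Cox7a1 and Cox8b are known as heart and muscle forms and Cox6b2 as a testis form, were nearly without peaks. None had Spi1 at the locus in 2 or more libraries of either genotype (49.8% of all genes did in KO-iMOS and 33.5% in WT-iMOS). No library had a peak at the locus for 5 of them, where 66.6% of all genes had one. At a gene end 7 had none, where 39.9% of all genes had one. These isoform genes are short, with a median length of 1682.5 bp against 17170 bp for all genes, and were not set against length-matched genes by themselves. Among the counterparts, Cox8a had end peaks in 14 libraries, Cox4i1 and Ndufa4 in 4 each and Cox6a1 in 2, while Cox6b1, Cox7a2 and Cox7b had none. Cox6a2 had Bcl11a peaks at the locus in 4 of 6 libraries and Spi1 in 0 of 4 KO-iMOS libraries and 1 of 6 WT-iMOS libraries, none at its ends. Its main region lies 5813 bp from the gene (chr7:128199153-128199756).

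Among the complex IV assembly factors, Cox10, the enzyme that makes heme O for the catalytic centre, had Spi1 in all 10 Spi1 libraries and Bcl11a in 0 of 6. Its peak (chr11:64079078-64079761) has no other gene end within 1 kb, and ranged over percentiles 60.3 to 83.3 in KO-iMOS and 4.33 to 69.2 in WT-iMOS. With equal lists it was kept in 2 of 4 KO-iMOS and 0 of 6 Spi1 WT-iMOS libraries. Cox17, a copper chaperone, had Spi1 in 3 of 4 KO-iMOS libraries and 5 of 6 WT-iMOS libraries and Bcl11a in 0 of 6. Cox18, a membrane insertase for the mitochondrially encoded subunit Cox2, had 4 of 4 Spi1 KO-iMOS, 2 of 6 Bcl11a and 3 of 6 Spi1 WT-iMOS libraries. Cox14, which acts early in the making of the subunit Cox1, had 3 of 4 Spi1 KO-iMOS, 3 of 6 Bcl11a and 2 of 6 Spi1 WT-iMOS libraries, and Cox20, which also acts on Cox2, had 2 of 4 Spi1 KO-iMOS, 3 of 6 Bcl11a and 1 of 6 Spi1 WT-iMOS libraries.

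ATP synthase has 17 members, of which 9 (52.9%) had Spi1 at a gene end in at least 2 KO-iMOS libraries, 1 (5.88%) had Bcl11a and 4 (23.5%) had Spi1 in WT-iMOS. The shares over all genes were 27.3%, 10.9% and 12.7%. Atp5md, a small membrane subunit linked to dimer formation, had 4 of 4 Spi1 KO-iMOS, 1 of 6 Bcl11a and 5 of 6 Spi1 WT-iMOS libraries at an end next to Pdcd11 (chr19:47090359-47091203). The gene family Atp5g1, Atp5g2 and Atp5g3 encodes the same mature subunit c of the rotor ring, and its promoters differed. Atp5g1 had an end peak in 4 of 4 Spi1 KO-iMOS libraries, 3 of 6 Bcl11a libraries, all T1, and 0 of 6 Spi1 WT-iMOS libraries. Atp5g2 had 1 of 4 Spi1 KO-iMOS, 1 of 6 Bcl11a and 0 of 6 Spi1 WT-iMOS libraries, and Atp5g3 had none. Atp5j (coupling factor 6) had 4 of 4 Spi1 KO-iMOS, 0 of 6 Bcl11a and 3 of 6 Spi1 WT-iMOS libraries, and Atp5l (subunit g) had 3 of 4 Spi1 KO-iMOS, 1 of 6 Bcl11a and 3 of 6 Spi1 WT-iMOS libraries. The Atp5j region (chr16:84834603-84835521) also lies 97 bp from the end of Gabpa. The catalytic beta subunit gene Atp5b had an end peak in 1 of 4 Spi1 KO-iMOS libraries and in 0 of 6 libraries of each WT-iMOS group.

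The genotype comparison asks where Spi1 peaks differ between KO-iMOS and WT-iMOS cells. No gene of 21883 passed Fisher's exact test after Benjamini-Hochberg adjustment (two-sided; smallest adjusted p 0.264 at the locus and 0.457 at a gene end), so no member did. The smallest p that 4 against 6 libraries allow is 0.00476. At an unadjusted p under 0.05, KO-iMOS was higher at 12 members at the locus (8.36% of all genes, 11.01% of members) and 10 at a gene end (6.13% of all genes, 9.17% of members), and lower at 1 (0.887% of all genes) and 0 (0.105% of all genes). Without KO-iMOS T1 replicate 1, T1 replicate 2 or T2 replicate 1 the number of members under that p, both directions joined, was 6, 6 or 7 at the locus and 3 in each case at a gene end. By size alone, the share of libraries with a peak was higher by at least 0.5 in KO-iMOS at 41 members at the locus (22.5% of all genes, 37.6% of members, 21.4% of length-matched genes) and at 35 at a gene end (16.1% of all genes, 32.1% of members, 15.0% of length-matched genes). It was lower by at least 0.5 at 1 member at the locus (2.12% of all genes) and 0 at a gene end (0.219% of all genes). Without KO-iMOS T1 replicate 1, the longest list, 26 and 22 members were higher.

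The median difference in share, KO-iMOS minus WT-iMOS, was 0.25 over members and 0 over all genes, at the locus and at a gene end alike. The difference moved with list length. With all lists cut to the 2719 strongest peaks, 6 members were higher by at least 0.5 at the locus (5.50% of members, 4.23% of all genes) and 3 at a gene end (2.75% of members, 1.86% of all genes). The part of list length in the difference was not tested beyond this. The shortest KO-iMOS list, T2 replicate 2 with 6372 peaks, had gene-end peaks at 18.3% of members, against 14.7%, 12.8% and 11.9% in the 3 Spi1 WT-iMOS lists of 6795 to 7120 peaks. Over all genes the shares in the same libraries were 11.2% in that KO-iMOS list, against 7.96%, 8.55% and 6.40% in those WT-iMOS lists, so the KO-iMOS share was the highest of the 4 for all genes as well.

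**Figure D4:**
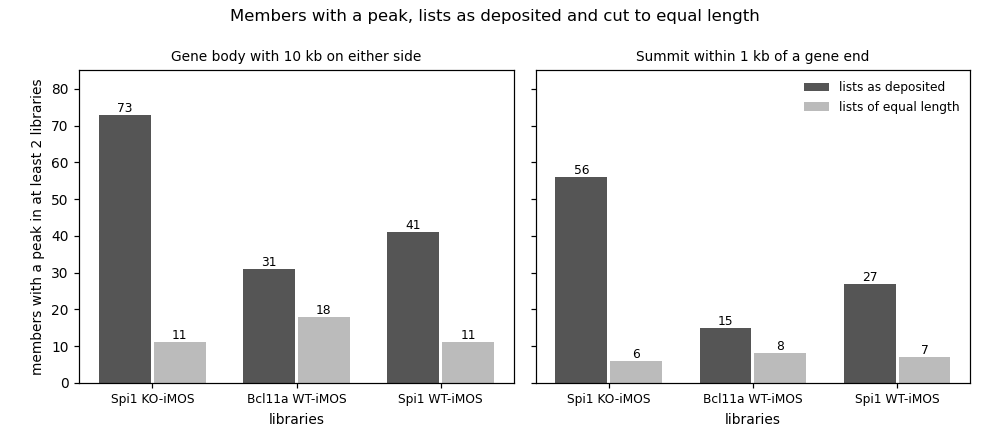
Number of members with a peak in at least 2 libraries of each group, with lists as deposited (dark) and with each list cut to its 2719 strongest peaks (light), at the locus and at a gene end. At a gene end the counts are 56, 15 and 27 as deposited and 6, 8 and 7 with equal lists.

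A Spi1 end peak was found in KO-iMOS libraries only at 43 members (39.4% of members, 19.5% of all genes), in both genotypes at 32 (29.4% of members, 17.8% of all genes) and in WT-iMOS libraries only at 1, Uqcrh (0.917% of members, 1.12% of all genes). Atp5g1 and Ndufa8 were the members with an end peak in 4 of 4 KO-iMOS libraries and 0 of 6 WT-iMOS libraries (Fisher's exact p = 0.00476, adjusted p = 0.457 each). At Atp5g1 the KO-iMOS peak (chr11:96075453-96076069) ranged over percentiles 31.2 to 81.1 of its lists (median 66.7), and 2 of the 4 remained with equal lists. Ndufa8, an accessory subunit imported into the intermembrane space, lies on the minus strand. Its peak in all 4 KO-iMOS libraries was at the far end and not at the start, 673 bp outside the gene (chr2:36035100-36035862), at percentiles 27.4 to 47.8. At the start of Ndufa8 a second region (chr2:36048964-36049810) had Spi1 in 2 of 4 KO-iMOS libraries, both T1, at a median percentile of 56.6, and in 0 of 6 WT-iMOS libraries. A WT-iMOS peak in 1 of 6 libraries touched the far region with its summit more than 1 kb from the gene, and none of these peaks remained with equal lists. Ndufv3 had 4 of 4 KO-iMOS libraries and 1 of 6 WT-iMOS libraries (p = 0.0476 by Fisher's exact test, adjusted p = 0.763), and no Spi1 peak with equal lists. Sdhd, Ndufa4, Ndufb4, Ndufa6, Ndufs8, Atp5c1 and Atp5pb each had 3 of 4 KO-iMOS libraries and 0 of 6 WT-iMOS libraries (Fisher's exact p = 0.0333, adjusted p = 0.660). None of them had a Spi1 end peak with equal lists. At the locus, Ndufa6, Ndufs8 and Atp5pb also had Spi1 in 5, 3 and 3 of 6 WT-iMOS libraries.

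The member with the opposite pattern was Ndufs4, an accessory subunit whose loss in humans causes Leigh syndrome. A region 5757 bp outside the gene (chr13:114393703-114394384) and 58253 bp from the nearest other gene end, that of Fst, had Spi1 in 0 of 4 KO-iMOS libraries and in 6 of 6 WT-iMOS libraries (Fisher's exact p = 0.00476, adjusted p = 0.264), and Bcl11a in 6 of 6. The KO-iMOS lists are the longer ones on average, though the shortest held 6372 peaks, and the part of list length at this region was not tested. The peak stood at median percentiles of 73.8 in Bcl11a and 65.4 in Spi1 WT-iMOS, and with equal lists it was kept in 0 of 4 Spi1 KO-iMOS, 5 of 6 Bcl11a and 3 of 6 Spi1 WT-iMOS libraries.

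The target comparison asks where Bcl11a and Spi1 differ in WT-iMOS cells. No gene passed the adjusted Fisher's exact test (smallest adjusted p 0.162 at the locus and 0.275 at a gene end; smallest p allowed by 6 against 6 libraries 0.00216). At an unadjusted p under 0.05, Bcl11a was higher at 1 member at the locus (0.27% of all genes) and 0 at a gene end (0.224% of all genes), and lower at 6 (3.64% of all genes) and 6 (1.68% of all genes). By size, Bcl11a was higher by at least 0.5 at 7 members at the locus (2.28% of all genes) and 3 at a gene end (1.55% of all genes), and lower at 15 (12.3% of all genes) and 12 (5.15% of all genes). Ndufaf7, Ndufb5, Ndufb9 and Cox10 had no Bcl11a peak and a Spi1 peak in 6 of 6 libraries (Fisher's exact p = 0.00216, adjusted p = 0.275 at a gene end). Cox17 and Ndufaf6 had 0 of 6 and 5 of 6 (exact p = 0.0152, adjusted p = 0.795). On equal lists, a Spi1 end peak remained at Ndufaf7 in 6 of 6 libraries and at Ndufb9 in 5 of 6. Ndufb5, Cox17 and Ndufaf6 kept it in 3 of 6 each and Cox10 in 0 of 6, so the difference at Cox10 was gone. In the other direction, Cox5a carried Bcl11a at its locus in 5 of 6 libraries and Spi1 in 0 of 6 (exact p = 0.0152, adjusted p = 0.387), with Bcl11a in 2 of 6 on equal lists. Its region (chr9:57520908-57521548) lies inside the gene span, 3885 bp from the nearer boundary, but at the RefSeq promoter start, with Bcl11a summits at -19 to -15 bp from it. Uqcrh had a Bcl11a peak in 6 of 6 libraries and a Spi1 peak in 2 of 6 (exact p = 0.0606, adjusted p = 1), with 4 of 6 and 0 of 6 on equal lists. Without Bcl11a T1 replicate 2 or without T1 replicate 3, 1 member was higher by at least 0.5 at a gene end and 3 at the locus.

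**Figure D5:**
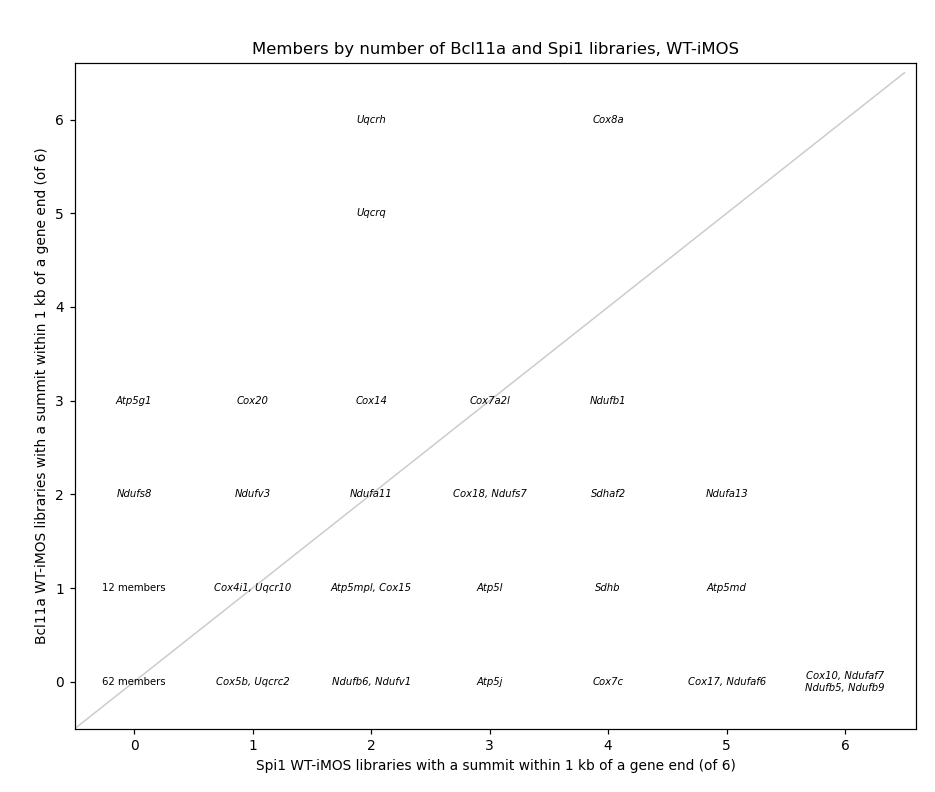
Members (1 not shown) placed by the number of Bcl11a WT-iMOS libraries (vertical, of 6) and Spi1 WT-iMOS libraries (horizontal, of 6) whose summits reach to 1 kb or less from a gene end; the grey line marks equal numbers. Uqcrh, Uqcrq and Cox8a stand above the line, and Cox10, Ndufaf7, Ndufb5 and Ndufb9 at the lower right with 0 of 6 and 6 of 6.

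T2 and T1 were set side by side within each target and genotype, where the smallest exact p is 0.1 with 3 against 3 libraries and 0.333 with 2 against 2, so no test can pass. No member had a peak in every T2 and no T1 library in any group, at the locus (0.192% of all genes in Spi1 KO-iMOS, 0.114% in Bcl11a and 0.21% in Spi1 WT-iMOS) or at a gene end (0.178%, 0.00914% and 0.0503%). The other way round, in Spi1 KO-iMOS 7 members had no T2 and every T1 library at the locus (3.6% of all genes) and 5 at a gene end (2.38% of all genes), Atp5h, Cox16, Cox20, Ndufa10 and Ndufb2. Of these, Cox20 and Ndufa10 did have a Spi1 KO-iMOS peak at the locus in 1 T2 library, just beyond the gene-end distance. At Cox20 that T2 summit lay 42 bp from the RefSeq start. In Bcl11a the members were Atp5g1, Cox14 and Cox7a2l, 3 at the locus (2.19% of all genes) and the same 3 at a gene end (1.27% of all genes). In Spi1 WT-iMOS there were 0 (0.343% and 0.0777% of all genes). Across libraries, 5 members had a Bcl11a end peak in some T2 library (4.59% of members, 5.55% of all genes) and 34 in some T1 library (31.2% of members, 18.8% of all genes). Leaving out T1 replicates 2 and 3 together lowered the members with Bcl11a in at least 2 libraries to 13 at the locus and 4 at a gene end. Without Bcl11a T1 replicate 1 the T1-only members were 14 at the locus and 10 at a gene end. Without Bcl11a T2 replicate 1 they numbered 5 at the locus. In Spi1 KO-iMOS the T1-only members were 27 and 22 without T2 replicate 1, and 16 and 18 without T1 replicate 2.

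Genes of the same pathway outside the naming rule were read in the same way. Of 65 such genes in 4 lists (further assembly factors of complexes I and V, further complex III and IV genes, regulators of mitochondrial gene expression, and the tricarboxylic acid cycle), 41 had Spi1 at a gene end in at least 2 KO-iMOS libraries (63.1%, against 51.4% of members and 27.3% of all genes), 15 had Bcl11a (23.1%, against 13.8% of members and 10.9% of all genes) and 23 had Spi1 in WT-iMOS (35.4%, against 24.8% of members and 12.7% of all genes). At a gene end KO-iMOS was higher by at least 0.5 at 20 of them (16.1% of all genes) and lower at 0 (0.219% of all genes). None passed the adjusted test, and these genes were not counted with lists of equal length. Higd1a, a hypoxia-induced protein that associates with complex IV, had an end peak in all 16 libraries. Cycs (cytochrome c) and Ogdh (2-oxoglutarate dehydrogenase) each had 3 of 4 Spi1 KO-iMOS, 5 of 6 Bcl11a and 1 of 6 Spi1 WT-iMOS libraries. Ttc19, a complex III factor, had Spi1 in 4 of 4 KO-iMOS libraries, no Bcl11a peak, and Spi1 in 6 of 6 WT-iMOS libraries. Of the 17 regulators of mitochondrial gene expression, 11 (64.7%) had Spi1 at a gene end in at least 2 KO-iMOS libraries, 4 (23.5%) had Bcl11a and 9 (52.9%) had Spi1 in WT-iMOS. The shares over all genes were 27.3%, 10.9% and 12.7%. Tfam, Nrf1 and Ppargc1a were among the 5 regulators with no end peak in any library, while Gabpa had Spi1 in 4 of 4 KO-iMOS libraries and 3 of 6 WT-iMOS libraries and Bcl11a in 0 of 6. The Gabpa peak is the one already counted at the member Atp5j, whose end it shares, and is not a separate observation.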

How the data were processed

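Groups of CUT&Tag libraries follow the titles (target) and the genotype labels. The authors deposited one narrowPeak list per library with, for each peak, an integer score, a fold enrichment (ratio), and p- and q-values as −log10. Bowtie2, SAMtools, MACS2 and mm10 are named without versions in the submitters' processing notes; the sources used here do not mention a control library. These values are the authors' own and were used only to rank, filter or describe peaks within a list. The names of peaks inside the files carry other prefixes than the labels (PWT and PKO for KO-iMOS T1 and T2); groups follow the labels, and if the prefixes name other groups, values by genotype and T change meaning.

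The tools were scipy 1.17.1, pandas 2.3.3 and numpy 2.4.6 in Python 3.11.15, with matplotlib 3.10.9 for figures. The 130097 of 131939 peaks on assembled chromosomes were set against 21883 protein-coding genes of RefSeq on GRCm38.p6 (mm10). Presence per library was compared by Fisher's exact test (two-sided, Benjamini-Hochberg over all genes, threshold 0.05), checked on simulated data. Shares with no replicate test are descriptions. Regions are peaks merged over libraries; 60 was the largest number of identical intervals between any 2 lists. Named members were the 4 per role with the most libraries at a gene end, the 6 per direction with the largest difference in share of at least 0.5, and 4 per T contrast; further genes were named after their values were seen. The members and lists were chosen with earlier results of these data known. Alternatives were a stricter −log10 q above 5, lists of equal length, other distances, T and replicate blocks, and each library left out. Of the members, 1 is counted throughout but not reported by itself here.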

Additional observations from a re-analysis of the deposited data

Results flagged for a closer look

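Among the 4 Spi1 KO-iMOS libraries, the ratio of member share to length-matched share at gene ends was 1.68 in T2 replicate 2, lower than in the other 3 by a gap large against the group's range. It was the 1 such case in 18 groups of values, and chance gives about 1 in 20. That library has the shortest list of its group, 6372 peaks.

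Peaks on the mitochondrial chromosome, which encodes 13 further subunits of complexes I, III, IV and ATP synthase, were not part of any comparison above. Every library had them, at least 4 and at most 7, overlapping 4 to 7 of the 13 genes, and ND1, COX1, ND5 and CYTB were overlapped in all 16. The highest authors' fold of a mitochondrial peak was 2.08 to 2.19 in the Spi1 KO-iMOS lists, 3.44 to 4.12 in the Bcl11a lists and 3.51 to 3.60 in the Spi1 WT-iMOS lists, each on its own list's scale. None was the strongest peak of its list.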

How the results depend on the processing

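With lists of equal length (2719 peaks), Spi1 KO-iMOS against WT-iMOS had 3 members under an unadjusted p of 0.05 and 6 higher at the locus, and 1 and 3 at a gene end; Bcl11a against Spi1 had 7 lower at the locus, and 2 under that p and 6 lower at a gene end. T2-only members were 1 in Spi1 KO-iMOS at each place and T1-only members 0, with 1 in Bcl11a. Members with a peak in at least 2 libraries were 11 (Spi1 KO-iMOS), 18 (Bcl11a) and 11 (Spi1 WT-iMOS) at the locus, against 12.5%, 14.5% and 12.9% of all genes, and 6, 8 and 7 at a gene end, against 4.62%, 5.47% and 4.09% of all genes, and the excess over length-matched genes was 1.005 points (KO-iMOS, locus), 1.5 (KO-iMOS, gene end) and 1.57 (Spi1 WT-iMOS, gene end). For gene bodies with no flank, KO-iMOS against WT-iMOS gave 7 under that p and 0 lower, Bcl11a against Spi1 gave 4 higher and 9 lower, and occupied members were 48, 11 and 20. Matched on a neighbouring gene end, the KO-iMOS locus excess was 8.27 points. Without assembly factors, 4 (locus) and 2 (gene end) members had that p for Bcl11a against Spi1. Without Bcl11a T1 replicates 2 and 3 together, an alternative chosen after seeing the data, 13 and 4 members had Bcl11a. For the other settings the cause of each change was not tested.

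With the replicate number and T as a block, 4 members were under an unadjusted p of 0.05 for Bcl11a against Spi1 at the locus. For KO-iMOS against WT-iMOS the number was 0 at the locus and at a gene end. That 0 was fixed in advance, because the blocks that hold both genotypes are too few for any gene to reach that p. Same-numbered libraries did not deviate together throughout (correlations of their deviations at gene ends -0.201 to 0.327). Between Spi1 libraries these correlations were all positive (0.0105 to 0.327), and between Bcl11a and Spi1 libraries all negative (-0.201 to -0.0112). The numbers were not taken as pairs, so the main tests treat the libraries as independent.

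Leaving out each library in turn, members under an unadjusted p of 0.05 for KO-iMOS against WT-iMOS numbered 6 to 18 at the locus and 3 to 13 at a gene end, those higher 26 to 52 and 22 to 42. For Bcl11a against Spi1, members higher numbered 3 to 6 and 1 to 4. Members with Bcl11a numbered 18 to 31 and 8 to 15. T1-only members numbered 3 to 14 and 3 to 10 in Bcl11a, 8 to 27 and 5 to 22 in Spi1 KO-iMOS, and 0 to 2 in Spi1 WT-iMOS at each place; T2-only members numbered 0 to 1 and 0 to 4 in Spi1 KO-iMOS and 0 to 1 in Spi1 WT-iMOS at each place.

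Of the differences of named genes over all runs, 596 kept their direction and 16 became 0, 12 of them with lists of equal length (Ndufa8 and Ndufv3 among them, at both places) and 4 with no flank. Runs with T or replicate blocks, or without assembly factors, left each difference unchanged by design. Their part of the 596 therefore says nothing about stability. No gene passed the adjusted threshold in any run, so that threshold says nothing about stability. Of the summary values, 474 stayed within the replicate spread or 1.5 times the count and 74 did not, those given here. The 474 include the counts of genes and of members passing the adjusted test, which were 0 in every run. Depth is unknown, so a missing peak is not a missing site.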
